A study of Mus musculus with 2 samples.

Results

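The interferon response genes described here are 39 mouse genes that interferons are known to induce in other cells, or that carry the interferon signal, chosen by symbol. The platform annotation named features for 38 of them, 66 features in all, among 22485 named genes on the arrays. Ifi44 was not analysed here. RNA came from Utx knockout embryonic stem (ES) cells and from wild-type ES cells of the line V6.5, both grown on gelatin with LIF, the cytokine leukaemia inhibitory factor that keeps them undifferentiated. In each line, LIF was withdrawn and 100 nM retinoic acid (RA) was added for 48 h, and the untreated cells of that line were the control. RA-treated RNA (Cy5) and untreated RNA (Cy3) of a line shared 1 Agilent array, so each gene has 1 value per line: the log2 of its RA-treated signal divided by its untreated signal, called its ratio below. Utx is the X-linked enzyme that removes methyl groups from lysine 27 of histone H3. The labels name V6.5 for the knockout cells too, and do not say how many clones the knockout represents or which sex the cells had.

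Each line has 1 array and no dye swap. Replicates are therefore lacking for the ratios of either line and for the contrast of the lines, and a dye bias at a gene would be alike on both arrays. LIF withdrawal and RA came together and cannot be told apart. "After RA" below stands for both. A ratio above 0 most likely means more RNA after RA, going by the dyes. Cyp26a1 (4.27 in the knockout and 3.54 in V6.5) and Rarb (2.40 and 2.38), both known RA targets, were positive on both arrays. These are bulk ratios, so more cells expressing a gene and more RNA per cell cannot be told apart. They give no expression level either, so whether a member was expressed at all in these cells cannot be read from them.

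Interferons are secreted proteins of antiviral defence. Type I interferons act through the receptor chains Ifnar1 and Ifnar2 and interferon gamma through Ifngr1 and Ifngr2, and both switch on genes through JAK kinases and STAT proteins. A complex of STAT proteins with Irf9 binds the interferon-stimulated response element (ISRE), and STAT dimers bind the gamma-activated sequence (GAS). Members of the interferon regulatory factor (IRF) family also bind the ISRE. Mouse ES cells are known for a weak response to type I interferon and for making little of it.

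The promoter sequences are shown because the strongest ratios came from genes with different sequence in this window, and because 3 GTPase genes with nearly the same stretch had different ratios. RefSeq windows (GRCm38.p6) reaching from 250 bases before to 50 bases after the annotated start were found for 33 of the 39 genes, 38 windows in all. The genes without one here are Iigp1, Gbp6, Oas2, Usp18, Mx1 and Mx2. In 22 of the 33 genes the first window lay at the start of the gene's RefSeq entry. In the others it lay elsewhere, and which start these cells use was not measured. Each window was searched on both strands for the ISRE core GAAANNGAAA and for the GAS letters TTCNNNGAA. The ISRE letters were in 21 of the 38 windows (55.3%), against 3.44% of all 32851 windows, and the GAS letters in 12 (31.6%), against 8.3%. Matches of the ISRE overlapped each other in 5 genes, and a GAS match overlapped an ISRE match in Bst2 and Ifitm3. Printed 5′ to 3′ are the 150 bases before the start of 5 of the genes with higher ratios, with matches to either motif in capitals.
Gbp2 (chr3:142620513-142620662, plus strand): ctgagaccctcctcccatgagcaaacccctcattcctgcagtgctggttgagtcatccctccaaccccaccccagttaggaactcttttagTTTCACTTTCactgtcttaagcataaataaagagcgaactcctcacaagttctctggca
Gbp3 (chr3:142559894-142560043, plus strand): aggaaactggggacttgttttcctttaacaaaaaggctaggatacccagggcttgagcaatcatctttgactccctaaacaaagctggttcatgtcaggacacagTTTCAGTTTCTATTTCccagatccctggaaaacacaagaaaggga
Irgm1 (chr11:48871421-48871570, minus strand): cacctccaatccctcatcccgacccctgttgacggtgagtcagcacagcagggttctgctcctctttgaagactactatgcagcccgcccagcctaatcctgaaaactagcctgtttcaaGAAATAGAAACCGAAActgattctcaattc
Isg15 (chr4:156200819-156200968, minus strand): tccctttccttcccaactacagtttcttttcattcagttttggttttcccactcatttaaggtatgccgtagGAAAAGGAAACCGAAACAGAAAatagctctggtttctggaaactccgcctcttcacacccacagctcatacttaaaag
Oasl2 (chr5:114896784-114896933, plus strand): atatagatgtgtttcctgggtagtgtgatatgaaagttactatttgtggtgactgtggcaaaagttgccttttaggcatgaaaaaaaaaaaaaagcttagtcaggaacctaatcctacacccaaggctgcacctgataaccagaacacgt
Gbp2 holds 1 ISRE match, 59 to 50 bases before the start. Gbp3 and Irgm1 hold overlapping pairs, and Isg15 holds 3 that overlap in a run from 78 to 57 bases before the start. Oasl2 has no match in this window, although its ratio was the highest of the members on both arrays. A match is a run of letters and was not tested as a binding site. Matches outside the windows were not searched for.

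The second group is the promoters of 3 immunity-related GTPase (IRG) genes of chromosome 11, shown to set the same letters beside unequal ratios.
Igtp (chr11:58199406-58199555, plus strand): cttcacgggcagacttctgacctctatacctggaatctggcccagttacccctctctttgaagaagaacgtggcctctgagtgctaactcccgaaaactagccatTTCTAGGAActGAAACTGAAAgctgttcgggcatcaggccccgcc
Irgm2 (chr11:58214827-58214976, plus strand): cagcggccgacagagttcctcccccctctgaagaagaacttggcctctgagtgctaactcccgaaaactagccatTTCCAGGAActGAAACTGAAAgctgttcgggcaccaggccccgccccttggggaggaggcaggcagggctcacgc
Tgtp1 (chr11:48992247-48992396, minus strand): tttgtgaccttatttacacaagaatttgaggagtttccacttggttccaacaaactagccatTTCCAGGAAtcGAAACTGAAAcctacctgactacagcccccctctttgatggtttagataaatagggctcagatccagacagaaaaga
In each of them the ISRE letters begin 11 bases after the GAS letters begin. The GAS begins 45 bases before the start in Igtp, 75 in Irgm2 and 88 in Tgtp1. Igtp had ratios of 1.59 in the knockout and 0.23 in V6.5, Irgm2 1.03 and 0.36, and Tgtp1 -0.25 and -0.11. Igtp and Irgm2 thus lay past 2-fold on the knockout array alone, and Tgtp1 on neither array.

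**Figure D1:**
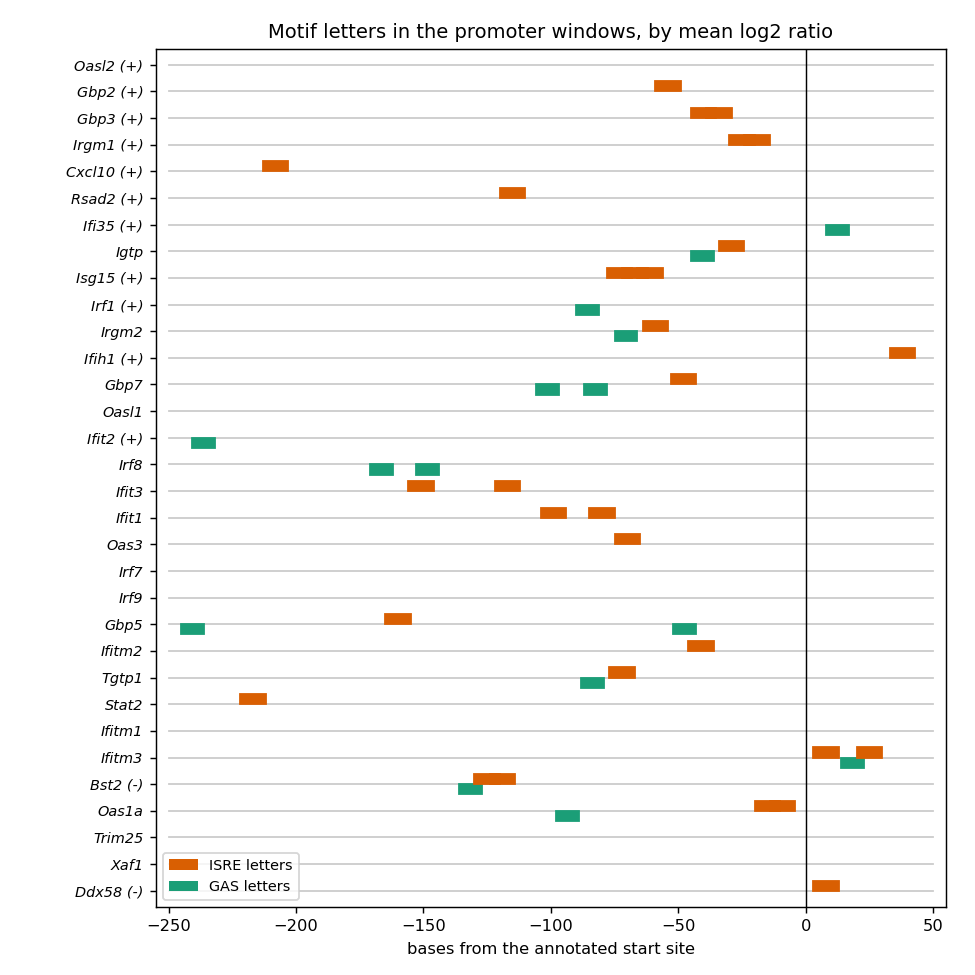
Positions of the ISRE letters (orange) and GAS letters (green) in the promoter window of each of 32 measured members, in bases from the annotated start site, with genes in order of their mean log2 ratio over both arrays. A plus or minus sign marks the members that rose or fell in limma; genes with and without matches stand at both ends of the order.

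Among members with a window, the ISRE letters were in 7 of 11 that rose in the limma test described next (63.6%) and in 12 of 19 that did not pass (63.2%). The GAS letters were in 3 of 11 that rose (27.3%) and in 8 of 19 that did not pass (42.1%). The 2 members that fell and had a window, Ddx58 and Bst2, both held the ISRE letters.

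A shared RA response was tested with limma, as the mean of both ratios, with Benjamini-Hochberg adjustment over all 22485 genes. Of 38 members, 12 rose (31.6%) and 3 fell (7.89%), against 8.93% of all genes that rose and 7.93% that fell, and 23 did not pass. The genes that rose were Oasl2, Gbp2, Gbp3, Irgm1, Cxcl10, Rsad2, Ifi35, Isg15, Irf1, Ifih1, Usp18 and Ifit2. Those that fell were Oas2, Ddx58 and Bst2. Of those that rose, Oasl2, Gbp2, Gbp3, Cxcl10, Rsad2, Ifi35, Usp18 and Ifit2 rest on 1 feature each. So do Oas2 and Bst2 of those that fell. The median ratio of the members was 0.22 in the knockout and 0.27 in V6.5, where all genes had a median of -0.02 on both arrays. Values after ± below are limma's moderated standard errors over the 2 arrays, in which the spread between cultures and the difference between the lines cannot be told apart. On the knockout array 7 members were at least 2-fold higher after RA, against 2.92% of all genes, and 1 at least 2-fold lower, against 1.65%. On the V6.5 array 6 were at least 2-fold higher, against 2.52%, and 3 at least 2-fold lower, against 1.59%. At 1.5-fold, 15 were higher (7.28% of all genes) and 3 lower (5.06%) in the knockout, and 9 were higher (6.69%) and 5 lower (5.36%) in V6.5. Tested against 1.5-fold with limma's treat, 2 members rose, Gbp2 and Oasl2, against 0.872% of all genes, and 0 fell, against 0.431%; without that bound 18 were higher, against 16.8% of all genes, and 9 lower, against 17.9%, at an unadjusted p under 0.05. In all, 36 of the 38 had ratios of the same sign on both arrays, as had 75.6% of all genes.

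**Figure D2:**
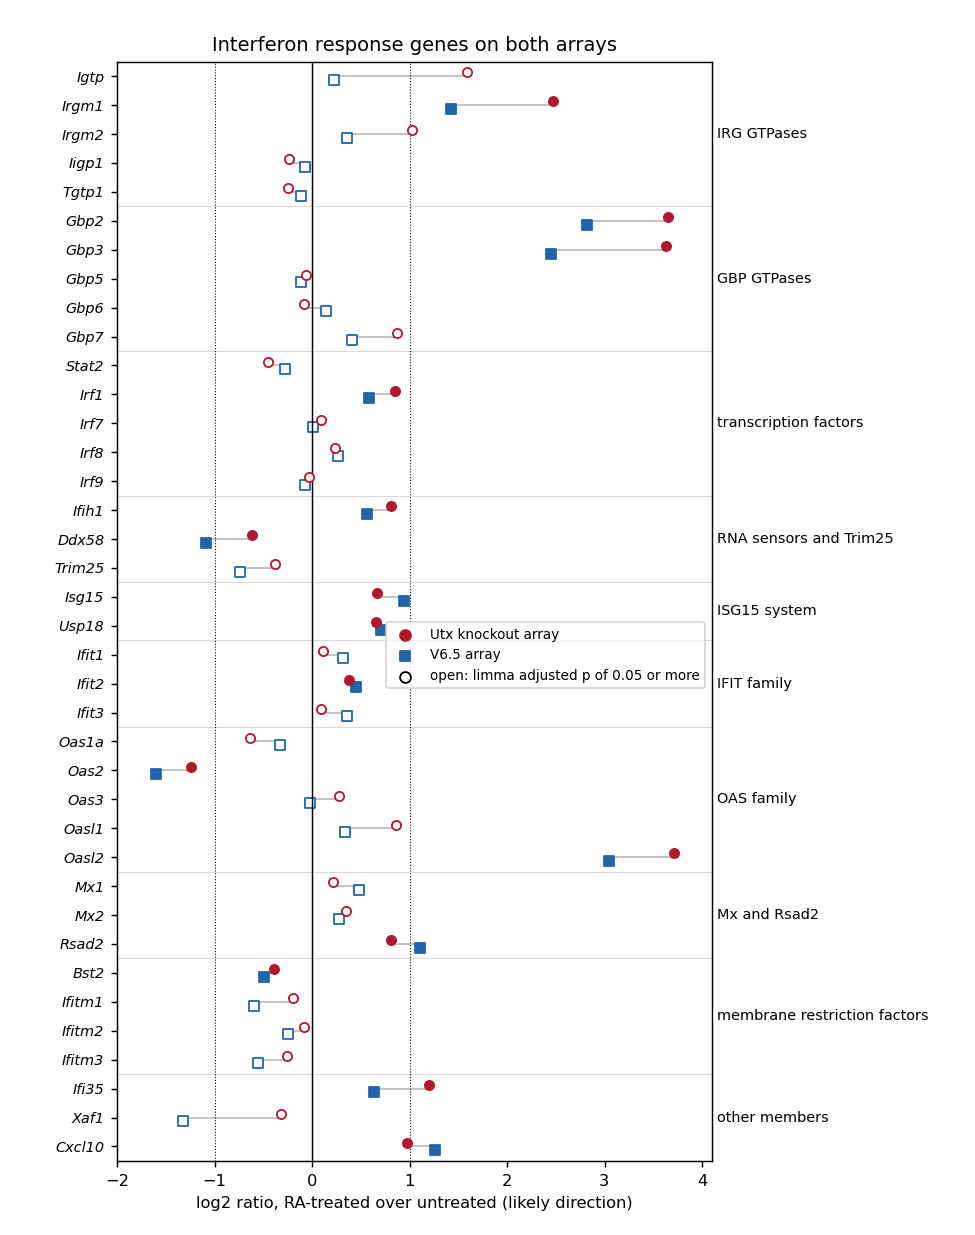
Log2 ratio (RA over untreated) of each of the 38 measured members by role, on the Utx knockout array (red circles) and the V6.5 array (blue squares), 1 array each. Filled symbols mark genes that passed limma, dotted lines mark 2-fold; Oasl2, Gbp2, Gbp3 and Irgm1 lie past 2-fold on both arrays and Oas2 below it on both.

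IRG proteins are GTPases that act on the vacuoles in which some pathogens live. Of 5 members 1 passed. Irgm1, a regulator of the other IRG proteins, had ratios of 2.47 in the knockout and 1.43 in V6.5. These are 5.54-fold and 2.69-fold, with a mean of 1.95 ± 0.27 (adjusted p = 0.0252, limma). Both features of Irgm1 were high, at 2.40 and 2.54 in the knockout and 1.28 and 1.58 in V6.5. Igtp, another regulatory IRG protein, did not pass, with a mean of 0.91 ± 0.35 (adjusted p = 0.161). It was measured by 10 features, which lay between 1.40 and 1.71 on the knockout array and between 0.04 and 0.36 on the V6.5 array. Features of a gene on 1 array are spots of 1 hybridisation and not replicates of a line. Irgm2 had an adjusted p of 0.0789. The effector GTPases Iigp1 (-0.24 in the knockout and -0.07 in V6.5) and Tgtp1 did not pass. The features of Iigp1 had opposite signs, with -0.57 and 0.09 in the knockout and -0.23 and 0.09 in V6.5. IRG genes have close copies, and their probes can share signal.

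Guanylate-binding proteins (GBPs) are larger interferon-induced GTPases with like roles. Of 5 members 2 rose, both far. Gbp2 had ratios of 3.65 in the knockout and 2.82 in V6.5, which is 12.6-fold and 7.04-fold. Its mean was 3.23 ± 0.22 (adjusted p = 0.0102, limma), the 47th highest of all genes. Gbp3 had 3.63 in the knockout and 2.46 in V6.5, a mean of 3.04 ± 0.30 (adjusted p = 0.0158) and rank 54. Gbp2 and Gbp3 rest on 1 feature each. Gbp5, of the same cluster, had -0.06 in the knockout and -0.11 in V6.5 and did not pass (adjusted p = 0.463). The start sites of Gbp5, Gbp7, Gbp3 and Gbp2 lie in this order within 124 kb of chromosome 3, on the same strand.

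Gbp7 lies between Gbp5 and Gbp3, and its 2 features went apart. One read 1.79 in the knockout and 0.96 in V6.5, and the other -0.04 and -0.14. Their mean missed the threshold (adjusted p = 0.0538). Gbp6, on chromosome 5, had mixed features too, with 0.26 and -0.43 in the knockout and 0.41 and -0.13 in V6.5. Its averages were -0.09 in the knockout and 0.14 in V6.5.

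Of 5 transcription factors 1 rose. This was Irf1, an early interferon gamma target that activates GBP and antigen presentation genes. Its ratios were 0.85 in the knockout and 0.58 in V6.5, with a mean of 0.72 ± 0.10 (adjusted p = 0.0251, limma). That mean comes from unlike features. One read 1.72 in the knockout and 1.15 in V6.5, and the other -0.01 and 0.01. Fitted alone, the first had an adjusted p of 0.0140 and the second 0.996, so Irf1 was not called when a majority of features had to pass. The partners that form the ISRE-binding complex lay at or below 0, with -0.45 in the knockout and -0.28 in V6.5 for Stat2 and -0.03 and -0.08 for Irf9, and neither passed. Irf7, the amplifier of the type I response, had 0.09 and 0.01. Irf8, best known from blood cells, had 0.23 and 0.27.

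**Figure D3:**
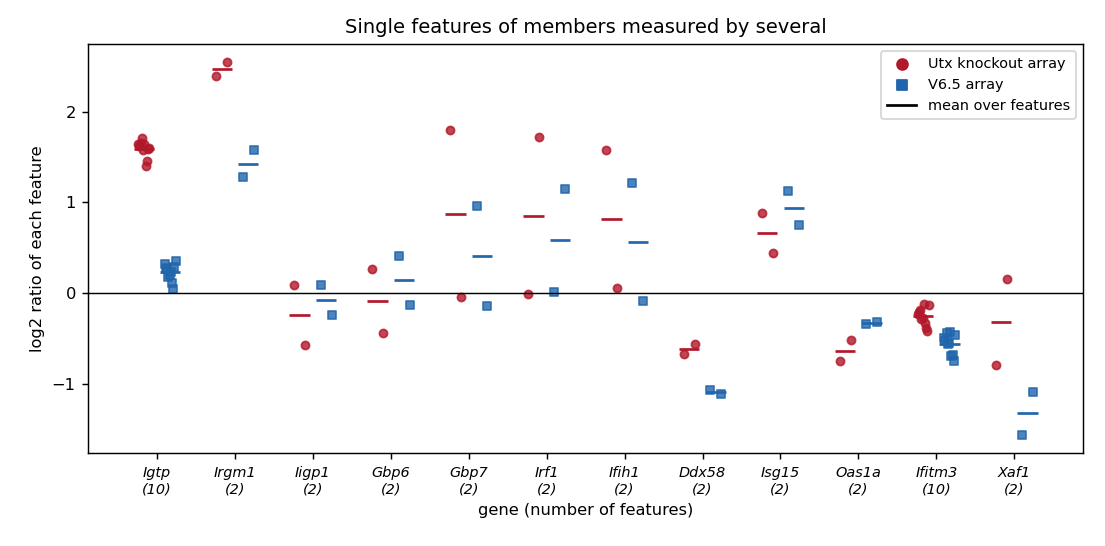
Log2 ratio of each single feature of the 12 members measured by several features, with the Utx knockout array (red circles) left of the V6.5 array (blue squares) and lines at the means. The 10 features of Igtp lie between 1.40 and 1.71 in the knockout and between 0.04 and 0.36 in V6.5. Gbp7, Irf1 and Ifih1 each have 1 high feature and 1 near 0 on both arrays.

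Of the cytoplasmic sensors of viral RNA, Ifih1 rose and Ddx58 fell, while Dhx58, a related sensor outside the members, had 0.19 in the knockout and 0.24 in V6.5 and did not pass. Ifih1, which encodes the sensor MDA5, had ratios of 0.81 in the knockout and 0.56 in V6.5, a mean of 0.69 ± 0.10 (adjusted p = 0.0257, limma). Again 1 feature was high (1.57 and 1.21) and the other near 0 (0.06 and -0.09). Fitted alone, the low feature had an adjusted p of 0.915, and the call of Ifih1 was lost when a majority of features had to pass. Ddx58, which encodes the sensor RIG-I, fell to -0.61 in the knockout and -1.09 in V6.5, a mean of -0.85 ± 0.14 (adjusted p = 0.0332). Its features were close to each other, at -0.67 and -0.56 in the knockout and -1.06 and -1.11 in V6.5. Trim25, the ubiquitin ligase that acts with RIG-I, had -0.38 in the knockout and -0.74 in V6.5 and missed the threshold (adjusted p = 0.0507). It passed as lower under 4 alternatives, with adjusted p of 0.0496 for the median over features, 0.0473 for median centring, 0.0485 for scaling and 0.0474 for the fit per feature.

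Isg15, a ubiquitin-like protein attached to other proteins, and Usp18, the protease that removes it and also restrains the type I receptor, both rose. Isg15 had ratios of 0.66 in the knockout and 0.94 in V6.5, a mean of 0.80 ± 0.10 (adjusted p = 0.0212, limma). Usp18 had 0.66 and 0.71, a mean of 0.68 ± 0.07 (adjusted p = 0.0170). Averaged over features, neither gene reached 2-fold on an array. The 2 features of Isg15 read 0.88 and 0.45 in the knockout and 1.13 and 0.75 in V6.5. The IFIT proteins, which bind foreign RNA, had smaller ratios. Ifit2 rose by 0.42 ± 0.07 (adjusted p = 0.0390), with 0.38 in the knockout and 0.45 in V6.5. Ifit1 had 0.11 and 0.32 and Ifit3 0.09 and 0.36, and neither passed. The 3 genes lie close together on chromosome 19.

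The OAS family held both the highest and the lowest ratios of all members. OAS proteins make the second messenger that activates RNase L, and the related OASL proteins lack this activity in some members. Oasl2 had ratios of 3.72 in the knockout and 3.04 in V6.5, which is 13.1-fold and 8.23-fold. Its mean of 3.38 ± 0.18 (adjusted p = 0.00837, limma) ranked 37 among all genes. Oas2 fell to -1.24 in the knockout and -1.60 in V6.5, with a mean of -1.42 ± 0.12 (adjusted p = 0.0120). The other members did not pass. Oasl1 had 0.86 in the knockout and 0.34 in V6.5, Oas1a -0.63 and -0.33, and Oas3 0.28 and -0.02. Oasl2 and Oas2 rest on 1 feature each. Oas1a has close copies whose signal its probes can share.

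Rsad2, the antiviral enzyme viperin, rose, with ratios of 0.81 in the knockout and 1.11 in V6.5 and a mean of 0.96 ± 0.11 (adjusted p = 0.0177, limma). The Mx proteins, GTPases that block viral replication, had 0.21 in the knockout and 0.48 in V6.5 for Mx1 and 0.35 and 0.28 for Mx2, without passing. Cxcl10, a chemokine that attracts T cells, rose by 1.12 ± 0.10 (adjusted p = 0.0137). Its ratios were 0.98 in the knockout and 1.26 in V6.5. Ifi35 rose by 0.92 ± 0.16 (adjusted p = 0.0360), with 1.20 in the knockout and 0.64 in V6.5. Xaf1, a protein that promotes cell death, had -0.32 in the knockout and -1.32 in V6.5 and did not pass (-0.82 ± 0.26, adjusted p = 0.116). Its features were -0.79 and 0.15 in the knockout and -1.56 and -1.08 in V6.5.

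All 4 membrane restriction factors had negative ratios on both arrays. Bst2, which tethers budding virus particles to the cell, fell by 0.44 on the log2 scale (SE 0.08, adjusted p = 0.0375, limma), with -0.39 in the knockout and -0.50 in V6.5. The IFITM proteins block viral entry and are known to be made in stem cells without interferon. Ifitm3 had -0.25 in the knockout and -0.56 in V6.5, with its 10 features between -0.41 and -0.12 on the knockout array and between -0.75 and -0.43 on the V6.5 array. Ifitm1 had -0.20 and -0.60 and Ifitm2 -0.09 and -0.24. No IFITM gene passed, with adjusted p of 0.0763 for Ifitm3, 0.109 for Ifitm1 and 0.252 for Ifitm2.

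How the response differed between the lines is described, with no test, by subtracting each gene's V6.5 ratio from its knockout ratio. It was above 0 for 24 members and below 0 for 14, where 50.7% of all genes lay above 0. The median difference of the members was 0.13, against 0.00 over all genes. In 4 members the knockout ratio was at least 2-fold higher, against 0.583% of all genes: Igtp, Gbp3, Irgm1 and Xaf1. In 0 members was it at least 2-fold lower, against 0.467%. At 1.5-fold the counts were 7 higher, against 2.5%, adding Gbp2, Oasl2 and Irgm2, and 0 lower, against 1.88%. The differences were 1.36 for Igtp, 1.17 for Gbp3, 1.04 for Irgm1, 1.00 for Xaf1 and 0.83 for Gbp2. Xaf1 was less negative in the knockout, while the other 6 were positive on both arrays and more so in the knockout. IRG and GBP GTPases made up 5 of the 7. The other members of these families differed by 0.47 for Gbp7, 0.05 for Gbp5, -0.14 for Tgtp1, -0.17 for Iigp1 and -0.23 for Gbp6.

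The groups by role are small, none was tested, and 50.7% of all genes had a difference above 0. By role, the difference was above 0 for 4 of 5 OAS members, with 0.67 for Oasl2 at the upper end and -0.30 for Oas1a as the exception. It was above 0 for all 4 membrane restriction factors, from 0.11 for Bst2 to 0.40 for Ifitm1, and for all 3 genes of the RNA sensor group, from 0.26 for Ifih1 to 0.47 for Ddx58. It was below 0 for all 3 IFIT genes, from -0.26 for Ifit3 to -0.07 for Ifit2, and for Isg15 (-0.28) and Usp18 (-0.05). Mx1 differed by -0.27, Mx2 by 0.08 and Rsad2 by -0.31. Transcription factors lay between -0.17 for Stat2 and 0.27 for Irf1, and Cxcl10 differed by -0.28 and Ifi35 by 0.56. For comparison, the SD between features of a gene within an array had a median of 0.14 on both arrays. That SD covers spots of 1 hybridisation and not the spread between cultures.

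**Figure D4:**
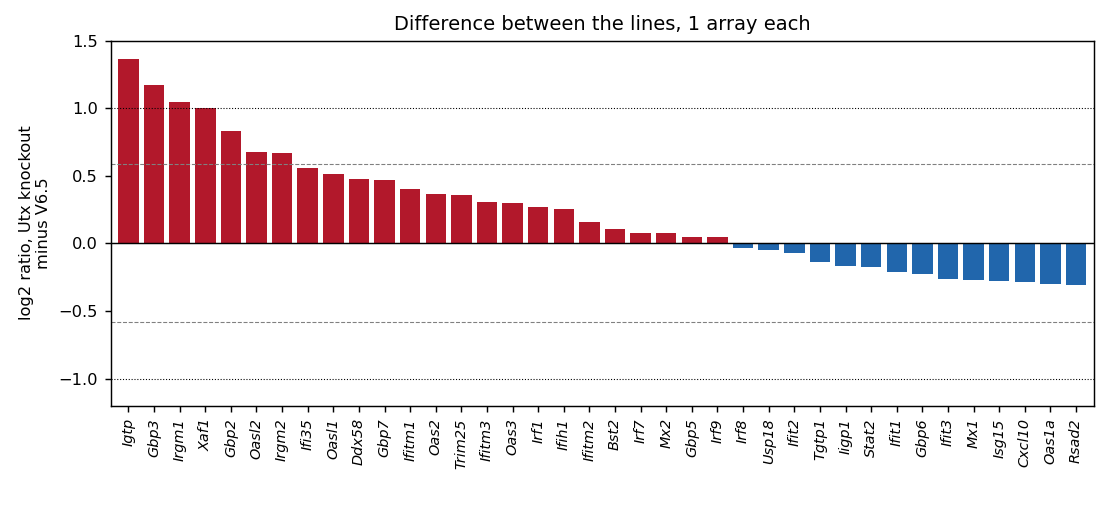
Knockout minus V6.5 log2 ratio of each of the 38 members, in order, from 1 array per line; dotted lines mark 2-fold and dashed lines 1.5-fold. The bars run from 1.36 for Igtp to -0.31 for Rsad2, and 7 bars pass the upper dashed line.

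Of 62 other measured genes of the interferon pathway, 9 rose and 2 fell in limma, against 8.93% of all genes that rose and 7.93% that fell. The ligands had ratios near 0. Of 12 interferon genes 0 passed in limma, and at an unadjusted p under 0.05 there were 0 higher, against 16.8% of all genes, and 2 lower, against 17.9%. Their ratios lay between -0.21 and 0.19 in the knockout and between -0.30 and 0.29 in V6.5. The gene for interferon beta, Ifnb1, had -0.10 and -0.15, and that for interferon gamma, Ifng, 0.10 and 0.16. These ratios do not show whether any interferon was expressed.

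Of 9 receptor and kinase genes 2 rose, where 8.93% of all genes rose and 7.93% fell. Ifngr1, the ligand-binding chain of the interferon gamma receptor, had 0.74 in the knockout and 0.65 in V6.5 (0.69 ± 0.08, adjusted p = 0.0177, limma). The kinase Jak2, which that receptor uses, had 0.53 and 0.49 (0.51 ± 0.07, adjusted p = 0.0269). The second chain, Ifngr2, had 0.68 in the knockout and 0.06 in V6.5 and did not pass. Of 12 sensing and relay genes, Sting1, the adaptor of DNA sensing, rose by 0.41 ± 0.08 (adjusted p = 0.0425). Of 10 inhibitors 2 fell, Socs3 (-1.45 and -1.26), which restrains JAK kinases and is also a LIF target, and Pias3 (-0.65 and -0.36). Socs1, the main brake on interferon gamma signalling, had 0.31 and 0.13 without passing. Of 6 further IRF-related genes 0 passed in limma, with 2 higher and 1 lower at an unadjusted p under 0.05. Irf2, a factor that binds the same DNA element as Irf1, had 1.05 in the knockout and 0.46 in V6.5 (adjusted p = 0.0556).

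**Figure D5:**
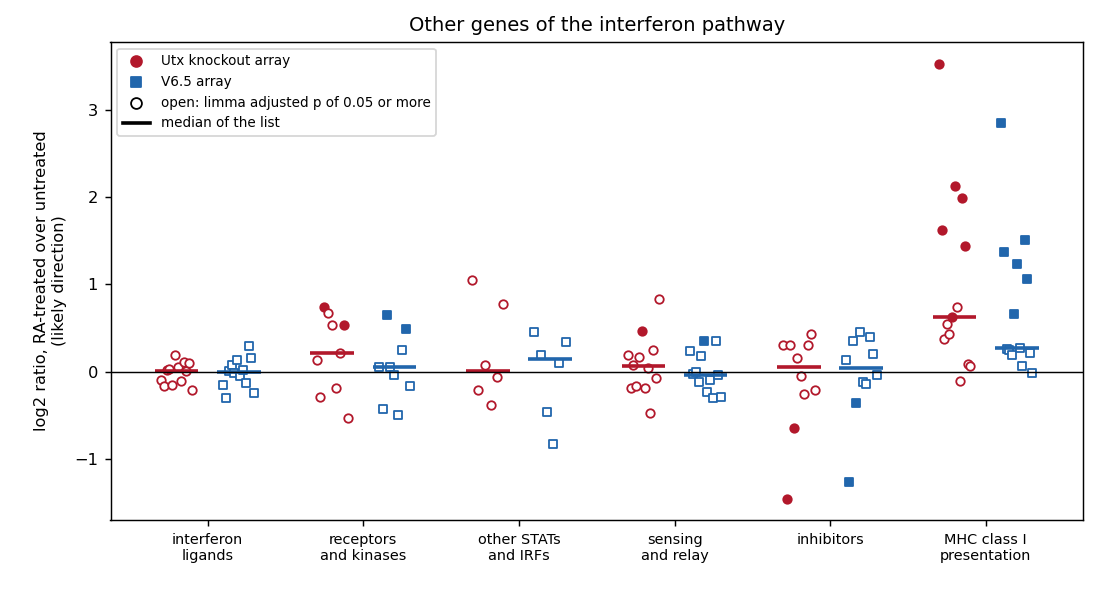
Log2 ratios of 62 other interferon pathway genes in 6 lists, with the Utx knockout array (red circles) left of the V6.5 array (blue squares), filled where limma passed and with lines at the list medians. The ligands lie between -0.21 and 0.19 in the knockout and between -0.30 and 0.29 in V6.5, while antigen presentation genes reach 3.53 in the knockout and 2.85 in V6.5.

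Genes of MHC class I presentation, many of which interferon gamma and Irf1 induce, rose in 6 of 13 cases (Psmb8, Psmb9, Tap1, Tap2, H2-K1 and H2-D1). In this list 0 fell, where 8.93% of all genes rose and 7.93% fell. The other 7 did not pass, B2m among them (-0.10 in the knockout and 0.06 in V6.5). Psmb8, Psmb9, Tap2 and H2-D1 rest on 1 feature each. Psmb8, a subunit of the immunoproteasome, stood beside Oasl2 and Gbp2 with 3.53 in the knockout and 2.85 in V6.5, while Nlrc5, the activator of class I genes, had 0.09 and 0.22 (adjusted p = 0.269, limma).

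Markers of other cells were read in the same way. Over all genes, 8.93% rose and 7.93% fell in limma, and 16.8% were higher and 17.9% lower at an unadjusted p under 0.05. Of 8 leukocyte and macrophage markers, Cd74, which interferon gamma is also known to induce, rose (2.84-fold in the knockout and 1.78-fold in V6.5) and Cd68 fell (-1.14 and -1.12 on the log2 scale). These were the highest and the lowest of the list on both arrays. Cd14 had 1.01 in the knockout and 0.28 in V6.5 without passing, and the general leukocyte marker Ptprc had -0.18 and -0.19. In this list 2 were higher and 1 lower at an unadjusted p under 0.05, and 6 were below 0 in the knockout and 5 in V6.5. Of 9 fibroblast markers 6 fell, and the median was -1.32 in the knockout and -1.01 in V6.5. Of 8 ES cell markers 2 fell, Pou5f1 and Klf4, and 6 were lower at an unadjusted p under 0.05. All 8 were below 0 in the knockout, while Nanog (0.29) and Dppa5a (0.16) were above 0 in V6.5. Of 7 extraembryonic endoderm markers Lama1 fell and the others did not pass. At an unadjusted p under 0.05, 3 were higher and 1 lower, 6 of the 7 were above 0 in the knockout and 4 in V6.5, and Dab2 had the highest knockout ratio (0.83, with 0.37 in V6.5). Of 5 endothelial markers 0 passed in limma, with 0 higher and 1 lower at an unadjusted p under 0.05. The part of these markers in the members' ratios was not tested.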

How the data were processed

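Expression of RA-treated against untreated cells was measured on 2 dual-colour Agilent arrays, 1 for Utx knockout and 1 for V6.5 ES cells. The authors deposited 1 log2 ratio per feature and array, for 44397 features. That the deposited values are log2 is read from their size: the largest, 5.86, would be 731680-fold as log10. The submitters' processing notes list limma alone, with neither version nor role. Background correction, normalization and direction were not given in the sources used here. The authors' columns average 0 and their medians were -0.03 on both arrays. Spot intensities were not used here, so signal over background is unknown, and precision is limited by the number of arrays.

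The platform annotation gave 33026 features 1 symbol, 0 several and 11371 none. Features of a gene were averaged. The shared response was fitted in limma 3.58.1 (R 4.3.3), an intercept over both ratios with lmFit and eBayes, two-sided, with a threshold of 0.05 on the adjusted p, 1 residual and 2.98 prior degrees of freedom. It takes both lines as samples of 1 response, so a difference between them enters its residual. The step was tested on simulated data with known changes added. That check set no limit on false calls or on how many of the smaller changes had to be recovered. Values of 1 array were counted past 2-fold with no test. The remaining steps ran in Python 3.11.15 (pandas 2.3.3, numpy 2.4.6; plots in matplotlib 3.10.9). RefSeq promoter windows (GRCm38.p6) were searched for exact letters; no build is named for the arrays.

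The members and lists were chosen with earlier results of these data known. All measured members were named, with test values for those that passed and for the 5 with the largest difference between lines; further adjusted p of members that did not pass were added after their values were seen. Of other pathway genes those that passed or went past 2-fold were eligible, and any others were named after their values were seen. Alternatives tried were the median over features, median centring, scaling of the arrays, robust eBayes, a fit per feature, genes with several features, treat against 1.5-fold, and 1.5-fold counts.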

Additional observations from a re-analysis of the deposited data

Results flagged for a closer look

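Members whose ratios had opposite signs in the lines were Gbp6, with -0.09 in the knockout and 0.14 in V6.5, a difference of -0.23, and Oas3, with 0.28 and -0.02, a difference of 0.30. Among other pathway genes Zbp1, a sensor of unusual nucleic acid, had 0.83 in the knockout and -0.29 in V6.5, a difference of 1.12; it was named after its values were seen. Both features of Zbp1 had these signs, while those of Gbp6 were mixed on each array. With 1 array per line, none of these differences was tested.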

How the results depend on the processing

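No paired analysis was possible because each line has 1 array. The 12 members that rose also rose with the median over features, median centring (14 in all), scaling of the arrays (13) and robust eBayes. In the fit per feature 10 remained, without Irf1 and Ifih1, whose features were unlike. With treat against 1.5-fold 2 rose, Gbp2 and Oasl2, and 0 fell. Among the 12 members with several features, fitted without the genes of 1 feature, 5 rose. These were 4 that also rose in the main fit, and Gbp7. The members that fell were 5 with scaling, adding Oas1a and Trim25, and 4 with the median over features, median centring and the fit per feature, each adding Trim25. Among members with several features 2 fell, Ddx58 and Oas1a. At 1.5-fold, 15 members were higher and 3 lower in the knockout, 5 were lower in V6.5, and 7 had a higher ratio in the knockout than in V6.5. Of 202 recomputed values of single members, 180 kept their side of the threshold, 13 lost it, all under treat, 9 gained it and 0 changed direction. The 202 leave out the fit per feature, in which Irf1 and Ifih1 lost their calls.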
